A study of Rattus norvegicus with 4 samples.

Results

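The 9 genes described here handle vitamin A and its active product in the rat uterus: the plasma carrier Rbp4, the membrane receptor Stra6, the storage enzyme Lrat, the synthesising enzymes Aldh1a1, Aldh1a2 and Aldh1a3, the cytoplasmic binding protein Crabp2, and the degrading enzymes Cyp26a1 and Cyp26b1. They were chosen by name, with earlier results of these data known, as probe sets that carry a single one of these symbols in the platform annotation. Each of the 9 had 1 such probe set, among 18166 genes tested. Uterine total RNA from Sprague Dawley rats, 10 to 12 weeks old and on day 5 of pregnancy, before implantation, was hybridised to 4 Affymetrix arrays. The treated group was 2 biological replicates from rats fed ormeloxifene, an oral contraceptive that is not a steroid and modulates oestrogen receptors selectively by tissue, at 1.25 mg per kg in gum acacia on day 1. The control group was 2 biological replicates from rats that received the vehicle alone. The sources used here do not say if RNA was pooled from several rats.

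Retinol reaches tissues bound to Rbp4 and can enter cells through Stra6. Inside the cell it is either esterified by Lrat for storage or oxidised, first to retinaldehyde and then, by the Aldh1a enzymes, irreversibly to retinoic acid. Retinoic acid is carried to the nucleus by Crabp2 and is cleared by Cyp26 enzymes. It binds receptors of the Rar family, which sit with Rxr partners on response elements in DNA. In the uterus of rodents this pathway is known as hormone-regulated, with steroid-dependent synthesis and clearance around implantation, and the timing of the comparison asks how its transcripts stood at that stage after ormeloxifene.

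The storage enzyme Lrat and the synthesising enzyme Aldh1a1 lay lower with ormeloxifene, by 0.72 ± 0.23 and 0.76 ± 0.20 on the log2 scale (difference ± standard error, 2 arrays against 2), and the receptor Stra6 lay higher by 0.44 ± 0.23. In these 3 genes no ormeloxifene array overlapped a vehicle array. Rbp4 lay lower by 0.43 ± 0.29 with overlapping groups. Aldh1a2, Aldh1a3, Crabp2, Cyp26a1 and Cyp26b1 differed by between -0.09 and 0.04. None of the 9 passed the threshold of an adjusted p under 0.05 (limma, Benjamini-Hochberg over all 18166 genes; adjusted p = 1.00 for each). The share of all genes that passed was 0.00%.

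At an unadjusted p under 0.05 stood 2 of the 9, Aldh1a1 and Lrat, both lower; of all genes tested, 2.20% reached that level and 1.08% did so on the lower side. Because the 9 were chosen with earlier results of these data known, setting these shares side by side does not test the pathway. Groups without overlap were seen in 3 of the 9 and in 25.7% of all genes, so that count is close to the background. The members' median difference was -0.09, beside 0.02 for all genes, and ran from -0.23 to 0.09 with 1 array left out. The 5th and 95th percentiles of the difference over all genes were -0.34 and 0.37, and Aldh1a1, Lrat and Rbp4 lay below and Stra6 above that band.

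**Figure D1:**
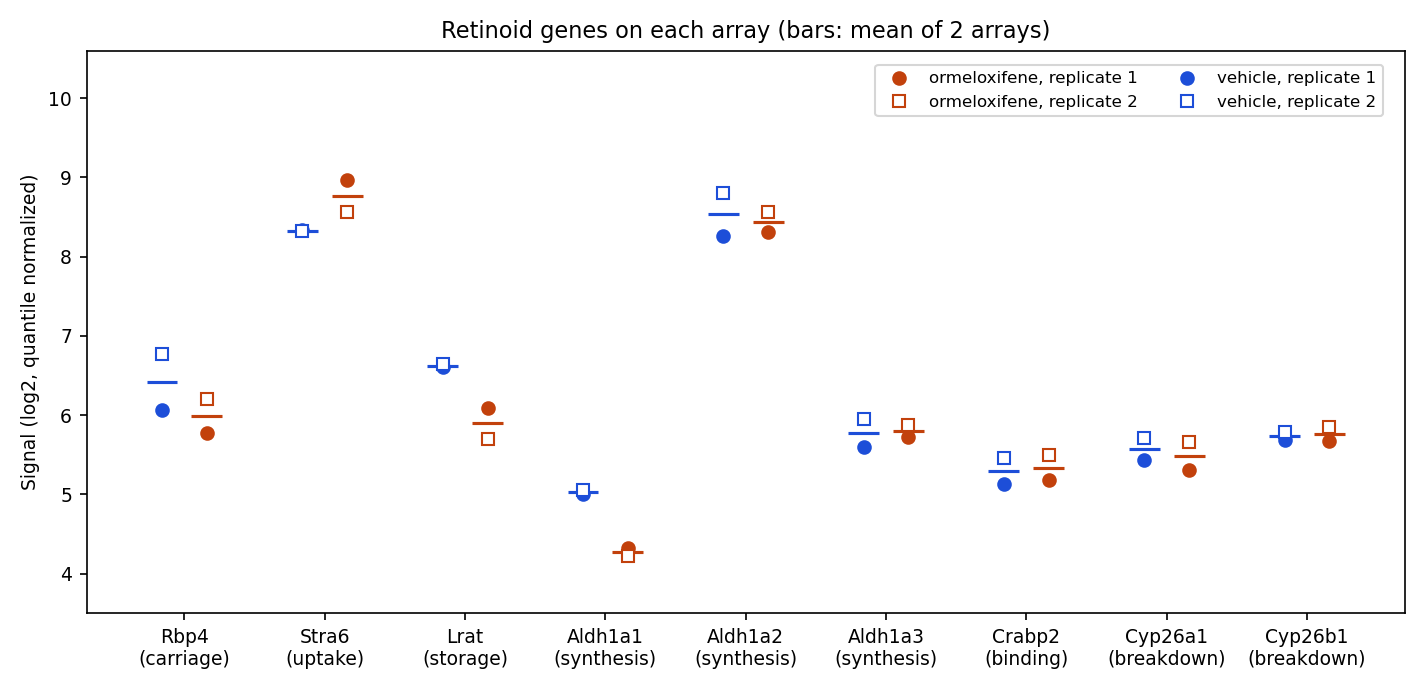
Signal of each of the 9 retinoid genes on each array (vertical axis, log2 after quantile normalization; genes in the order of the pathway). Filled circles are replicate 1, open squares replicate 2 and horizontal bars the mean of 2 arrays; Stra6, Lrat and Aldh1a1 are the genes in which the orange ormeloxifene points and the blue vehicle points do not overlap.

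Values below are log2 signals after quantile normalization. The signal of one probe set says nothing on the abundance of another gene, so brightness is given only as the percentile of a gene's mean among all genes tested, as a guide to how close a probe set may be to background. In bulk tissue, fewer cells of a type and less RNA per cell cannot be told apart.

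Rbp4, the retinol carrier of blood plasma, which the liver secretes and other tissues also make, gave 5.78 and 6.20 on the ormeloxifene arrays and 6.07 and 6.77 on the vehicle arrays. The highest value was vehicle replicate 2, and the groups overlapped. The difference of -0.43 ± 0.29 had a 95% interval from -1.11 to 0.25 and an unadjusted p of 0.183 by limma. Its size varied with the vehicle array kept: it shrank to -0.08 when vehicle replicate 2 was left out and widened to -0.78 when vehicle replicate 1 was. Leaving out 1 array leaves the replicate numbers unbalanced between the groups, so a difference between the numbers enters both values. Replicate 2 was above replicate 1 by 0.43 with ormeloxifene and by 0.70 with vehicle, a mean gap of 0.56 that was larger than the one between the groups. Within replicate number 1 and number 2 the difference was -0.29 and -0.56.

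Stra6, the cell-surface receptor that takes retinol from Rbp4, was among the brighter probe sets, at the 92.5th percentile. It gave 8.97 and 8.56 with ormeloxifene and 8.33 on both vehicle arrays. Both ormeloxifene arrays were above both vehicle arrays, the nearest of them by 0.23. The difference of 0.44 ± 0.23, or 1.36-fold higher, had a 95% interval from -0.09 to 0.97 and an unadjusted p of 0.0912 by limma. The 2 ormeloxifene arrays differed from each other by 0.41, nearly as much as the groups did. Without ormeloxifene replicate 1 the difference was 0.23, and without ormeloxifene replicate 2 it was 0.64.

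Lrat, which joins a fatty acid to retinol and so makes the storage esters, gave 6.10 and 5.70 with ormeloxifene and 6.61 and 6.64 with vehicle. The vehicle arrays lay within 0.03 of each other, and the higher ormeloxifene array was 0.51 below the lower of them. Lrat was thus 1.65-fold lower with ormeloxifene, at a difference of -0.72 ± 0.23 whose 95% interval, from -1.25 to -0.20, does not reach 0. Its unadjusted p of 0.0134 was the 112th smallest of 18166 by limma. The difference was -0.51 within number 1 and -0.94 within number 2. It was -0.53 without ormeloxifene replicate 2, where the unadjusted p was 0.126.

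Aldh1a1, a cytosolic retinaldehyde dehydrogenase, gave 4.33 and 4.22 with ormeloxifene and 5.00 and 5.05 with vehicle. The standard deviation within a group was 0.08 and 0.03, and a gap of 0.68 separated the groups. It was 1.69-fold lower with ormeloxifene, at a difference of -0.76 ± 0.20 whose 95% interval ran from -1.23 to -0.28. The unadjusted p of 0.00654 was the 61st smallest of 18166 by limma. Within number 1 and number 2 the difference was -0.68 and -0.84. Aldh1a1 was also the dimmest of the members, at the 13.9th percentile, and the deposited table gives no background, so how far its probe set stood above it is not known here.

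Aldh1a2, the retinaldehyde dehydrogenase that is the main source of retinoic acid in the embryo and is made in stromal tissue of many organs, was bright, at the 92.1th percentile. It gave 8.31 and 8.57 with ormeloxifene and 8.26 and 8.81 with vehicle. The lowest and the highest value were both vehicle arrays, with the ormeloxifene arrays between them. The difference was -0.09 ± 0.25, with a 95% interval from -0.69 to 0.50. The interval therefore spans a change of the size seen in Stra6, and the arrays do not show that Aldh1a2 was the same in both groups.

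Aldh1a3, the third enzyme of the family, gave 5.72 and 5.88 with ormeloxifene and 5.59 and 5.96 with vehicle. As with Aldh1a2, the vehicle arrays lay on either side of the ormeloxifene arrays. The difference was 0.02 ± 0.23 (95% interval from -0.50 to 0.55). Of the 3 Aldh1a genes, Aldh1a1 was the one whose groups did not overlap; whether the 3 differences differ from each other was not tested.

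Crabp2, which binds retinoic acid in the cytoplasm and hands it to its receptors, gave 5.18 and 5.49 with ormeloxifene and 5.13 and 5.46 with vehicle. Each replicate number had nearly the same value in both groups. The difference was 0.04 ± 0.23 (95% interval from -0.50 to 0.58), while replicate 2 was above replicate 1 by 0.31 and 0.33.

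Cyp26a1, the hydroxylase that starts the breakdown of retinoic acid, is known as one of the genes that retinoic acid itself induces most directly. Retinoic acid was not measured here, and whether the Cyp26a1 transcript followed it in this tissue was not tested. The promoter of Cyp26a1 is shown because it holds the response element through which induction by retinoic acid is known to work. The bases upstream of its start site (RefSeq, GRCr8, chr1:244883572-244883821, plus strand, 250 bases) carry 2 half-sites of the retinoic acid receptor in direct repeat, in capitals and read on the opposite strand:

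Cyp26a1 upstream: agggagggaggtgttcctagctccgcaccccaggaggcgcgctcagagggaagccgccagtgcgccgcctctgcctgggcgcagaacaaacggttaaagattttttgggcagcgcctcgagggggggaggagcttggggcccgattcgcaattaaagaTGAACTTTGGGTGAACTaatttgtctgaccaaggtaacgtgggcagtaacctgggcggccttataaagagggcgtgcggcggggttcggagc

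The motif searched was a half-site (any of AGGTCA or AGTTCA or GGGTCA or GGTTCA) repeated after 5 bases, on both strands of the 300 bases from 250 before to 50 after the start site. It was found in 0.382% of 33469 promoters of that length, in 1 of the 9 members and, of 43 other pathway genes with a promoter in the table, in 1, the receptor gene Rarb. Rarb is likewise known to be induced by retinoic acid. In Cyp26a1 it lies at bases -92 to -76 and in Rarb at bases 25 to 41, counted from the start site. The same element in both genes, with 6 flanking bases on each side, reads:

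Cyp26a1 element (chr1:244883724-244883752, plus strand): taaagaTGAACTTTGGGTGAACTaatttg

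Rarb element (chr15:11336410-11336438, plus strand): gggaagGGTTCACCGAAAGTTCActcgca

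On the opposite strand the Cyp26a1 site reads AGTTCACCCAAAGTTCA, against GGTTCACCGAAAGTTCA on the gene's own strand in Rarb. The repeat spaced by 2 bases (found in 0.170% of promoters) and the oestrogen response element, GGTCA and TGACC with 3 bases between them (0.0269%), were found in 0 of the 9 members. A single half-site, part of both repeats, was found in 3 members, Stra6, Aldh1a1 and Cyp26a1, and in 44.4% of all promoters. These matches describe the letters in that window and no binding.

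The transcript of Cyp26a1 gave 5.31 and 5.66 with ormeloxifene and 5.44 and 5.71 with vehicle. The arrays of the 2 groups alternated in order, with replicate 2 the higher in each. The difference was -0.09 ± 0.23, with a 95% interval from -0.63 to 0.45. For Rarb the values were 5.01 and 5.20 with ormeloxifene and 4.70 and 5.28 with vehicle, again overlapping, and the difference was 0.12 ± 0.26 (95% interval from -0.48 to 0.71), or -0.17 without vehicle replicate 1. The 2 genes with the element were thus dim, at the 31.3th and 20.5th percentile, and neither showed a detectable difference.

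Cyp26b1, the second hydroxylase, gave 5.68 and 5.85 with ormeloxifene and 5.69 and 5.78 with vehicle. The ormeloxifene arrays enclosed the vehicle arrays. Its difference of 0.03 ± 0.21 had a 95% interval from -0.46 to 0.51. Cyp26c1, the remaining enzyme of the family and the immediate neighbour of Cyp26a1 in the annotation with 0 protein-coding genes between them, differed by 0.14 ± 0.25. It gave 5.93 and 5.40 with ormeloxifene and 5.64 and 5.41 with vehicle, and the groups overlapped.

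**Figure D2:**
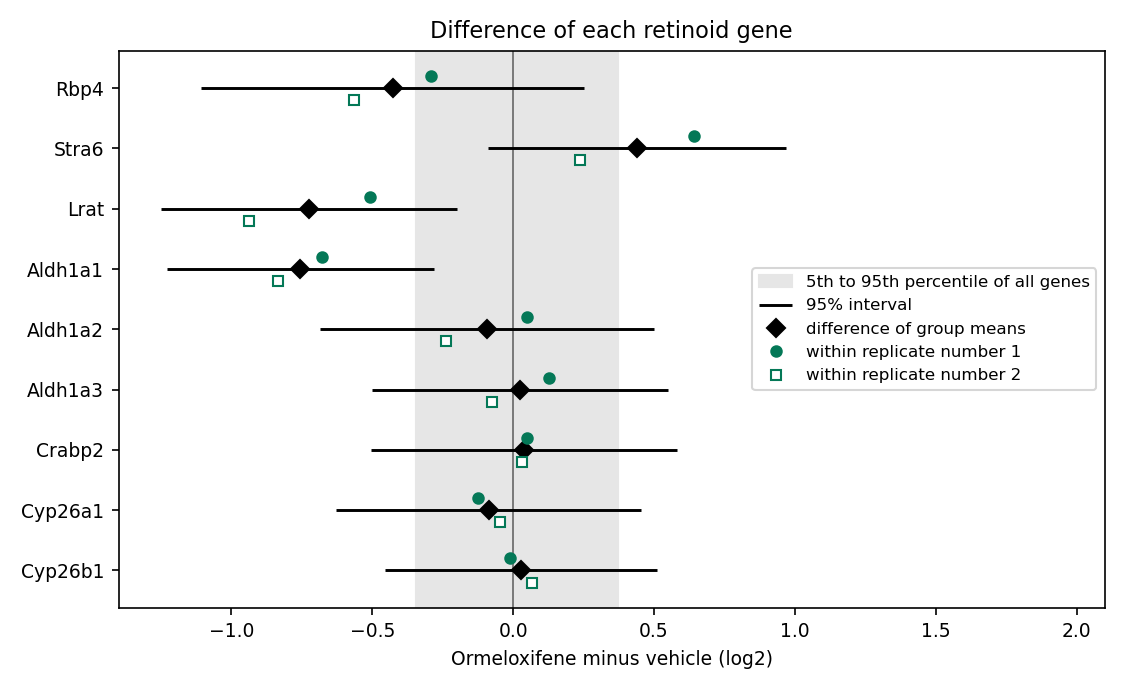
Difference of each member, ormeloxifene minus vehicle on the log2 scale (horizontal axis), as diamonds with the 95% interval of the limma fit; green symbols give the difference within each replicate number and the grey band the 5th to 95th percentile of all genes. In this fit, which has no block for the replicate number, the intervals of Lrat and Aldh1a1 stay below 0, at -0.20 and -0.28. Those of the other 7 members include 0.

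Arrays of the same replicate number were more alike than arrays of the same group. Exactly equal deposited values occurred 488 and 551 times between arrays of the same number and 0 times in the other 4 pairs, so arrays of a number were taken to share a batch of processing, although the labels name none. The mean difference between the numbers was larger than that between the groups in 6 of the 9 members and in 63.9% of all genes. The exceptions were Stra6, Lrat and Aldh1a1. In Aldh1a1 the numbers differed by -0.03 and the groups by -0.76.

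With the number as a block, 4 of the 9 members reached an unadjusted p under 0.05, against 6.76% of all genes: Aldh1a1 (0.00181), Lrat (0.00376), Rbp4 (0.0362) and Stra6 (0.0392), by limma with 1 residual degree of freedom per gene. With the values as deposited the block gave the same 4 members, against 6.40% of all genes. The choice of members with earlier results known applies here too, so these shares are a description only. None of these 4 members passed over all genes in either block fit, where 0.462% of genes passed on the deposited values. On the normalized values the smallest adjusted p was 0.364, that of Aldh1a1, and 0.0275% of all genes passed. Differences within number 1 and number 2 had the same sign in these 4 genes, which follows from the absence of overlap in 3 of them. In Aldh1a2, Aldh1a3 and Cyp26b1 the sign differed between the numbers: Aldh1a2 was 0.05 and -0.24, Aldh1a3 0.13 and -0.08, and Cyp26b1 -0.01 and 0.07.

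**Figure D3:**
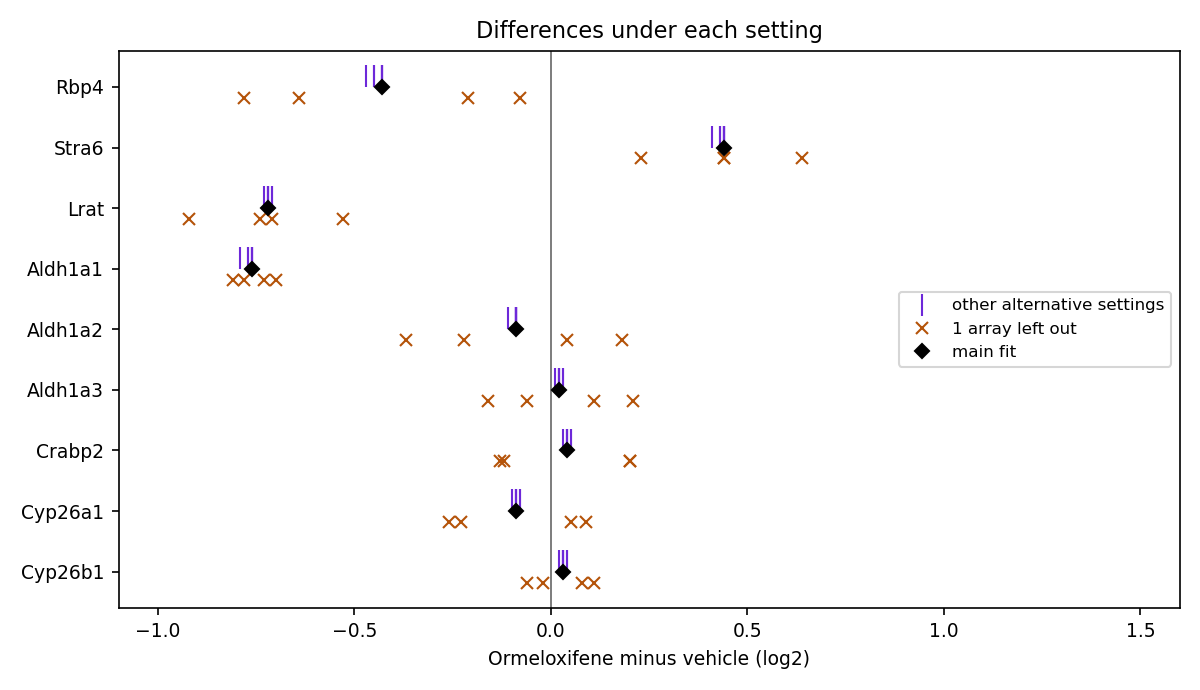
Difference of each member (horizontal axis, log2) in the main fit (diamonds), with 1 array left out (crosses) and under the other alternative settings (purple ticks). Aldh1a1 stays between -0.81 and -0.70, whereas Rbp4 runs from -0.78 to -0.08 when arrays are left out and Aldh1a2, Aldh1a3, Crabp2, Cyp26a1 and Cyp26b1 cross 0.

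The other genes of the pathway were described by lists, also chosen with earlier results of these data known. Of 65 distinct genes listed, 54 were measured, 31 of them higher and 23 lower, at a median of 0.05. Of all genes tested, 53.4% were higher. With the replicate number as a block, 4 of the 54 had an unadjusted p under 0.05 by limma, against 6.76% of all genes. None passed the adjusted threshold with or without the block. Without it, 1 gene had an unadjusted p under 0.05, on the higher side, where 1.12% of all genes stood. It belongs to the first step of synthesis, the reversible oxidation of retinol, where 7 of 14 measured genes were higher and 7 lower at a median of 0.00.

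That gene, Adh1c, a class I alcohol dehydrogenase that can oxidise retinol, gave 11.96 and 11.85 with ormeloxifene and 11.07 and 11.13 with vehicle. Both ormeloxifene arrays were above both vehicle arrays, at the 99.7th percentile of signal. The difference of 0.80 ± 0.20 had a 95% interval from 0.33 to 1.28 and an unadjusted p of 0.00478 by limma (adjusted p = 1.00). Alcohol dehydrogenases share sequence, and probe sets that name several of them were left out, so signal from a related gene is not separated here. Rdh10, the microsomal retinol dehydrogenase, gave 8.48 and 8.07 with ormeloxifene and 8.72 and 8.68 with vehicle, a difference of -0.42 ± 0.23 (unadjusted p = 0.102 by limma). Dhrs3, which reduces retinaldehyde back to retinol, gave 7.91 and 8.06 against 7.78 and 7.63, a difference of 0.28 ± 0.21 (unadjusted p = 0.213 by limma). In both genes the groups did not overlap. Estimates for the oxidising enzymes therefore differed in sign, above 0 for Adh1c and below 0 for Rdh10 and Aldh1a1.

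Beside Lrat, the list on ester storage, ester hydrolysis and carotenoid cleavage had 6 of 7 measured genes higher, at a median of 0.37 that fell to 0.20 without vehicle replicate 1. The groups did not overlap in 7 of 7, against 25.7% of all genes, but by gaps of only 0.01 (Scarb1) to 0.21 (Rpe65). In Scarb1 the vehicle arrays differed from each other by 0.66. Without the block, 0 of 7 had an unadjusted p under 0.05 by limma. With the number as a block 2 of 7 did, Bco1 and Pnpla2, against 6.76% of all genes. Bco1, which cleaves beta-carotene to retinaldehyde, gave 5.80 and 6.20 with ormeloxifene and 5.17 and 5.67 with vehicle, a difference of 0.59 ± 0.26 that was 0.33 without vehicle replicate 1. Pnpla2, a lipase of lipid droplets, differed by 0.41 ± 0.23 (0.20 without that array) and Rpe65, the isomerohydrolase of the eye, by 0.37 ± 0.21, the latter dim at the 8.20th percentile. The single lower gene was Dgat1, an acyltransferase that can also esterify retinol, at -0.12 ± 0.20. Several of these genes also serve fat metabolism. Adipocyte markers were higher in 5 of 6, at a median of 0.15, with a mean level of 5.55 to 5.66 on the ormeloxifene arrays and 5.33 to 5.58 on the vehicle arrays; their part in the result was not tested.

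**Figure D4:**
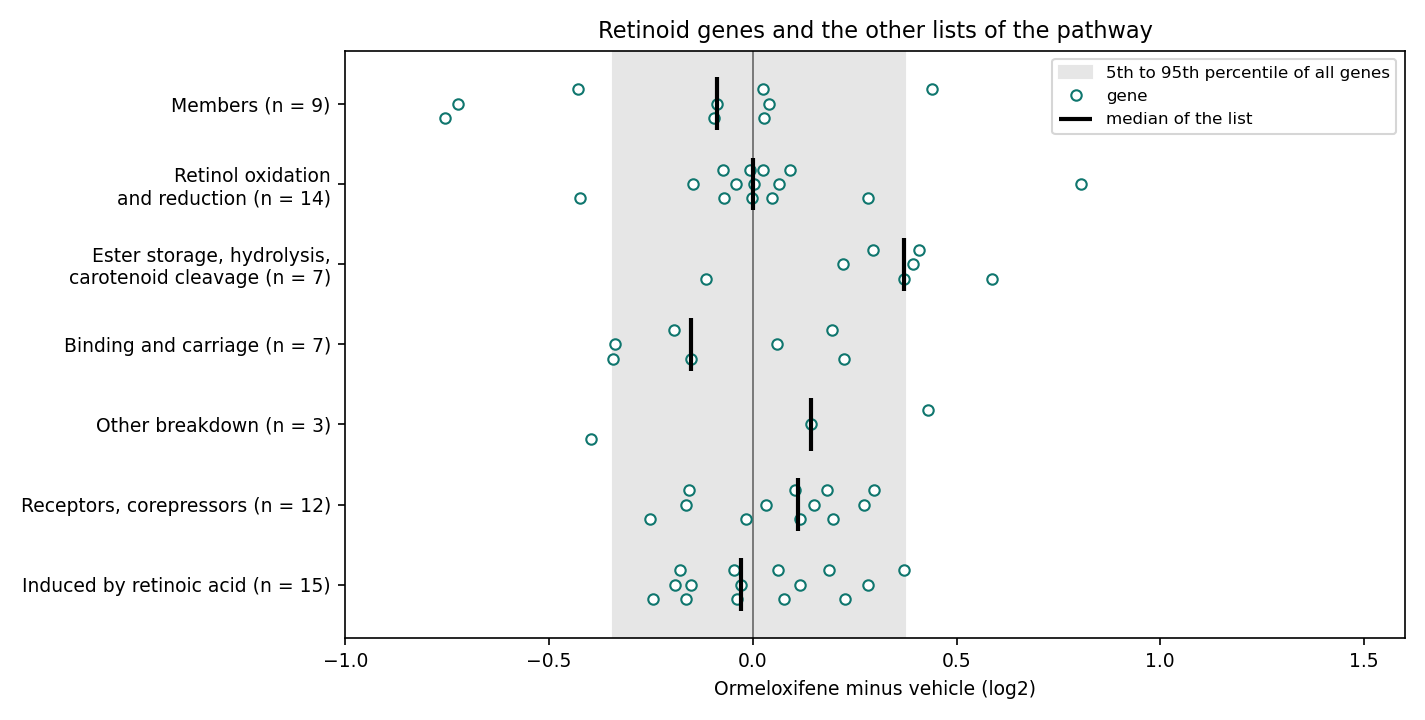
Differences of the 9 members and of the genes measured in the 6 other pathway lists (circles; horizontal axis, ormeloxifene minus vehicle on the log2 scale), with the median of each list as a bar and the 5th to 95th percentile of all genes as a grey band. Of the 63 genes, 52 lie inside the band, 5 below it (Lrat and Aldh1a1 farthest) and 6 above it (Adh1c farthest); genes in several lists are drawn in each.

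Among proteins that bind or carry retinoids, 3 of 7 measured genes were higher and 4 lower, at a median of -0.15. The endocytic receptor Lrp2, which takes up Rbp4 in the kidney, differed by -0.34 ± 0.25, the photoreceptor protein Rbp3 by -0.34 ± 0.21 and the intestinal Rbp2 by 0.22 ± 0.27. Of these 3, the groups overlapped in Rbp2. Other enzymes of breakdown numbered 3, with 2 higher: Cyp2c22 differed by 0.43 ± 0.23, Ugt2b7 by -0.40 ± 0.28 and Cyp26c1 as given above. The Ugt2b7 groups overlapped, and its difference was 0.13 within number 1 and -0.92 within number 2. Mean signal ranked low among all genes tested for Ugt2b7 (percentile 7.86), Rbp3 (13.3) and Cyp2c22 (15.8), so these probe sets may be close to background.

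The receptors and corepressors had 8 of 12 measured genes higher, at a median of 0.11, with 0 at an unadjusted p under 0.05 by limma. The median was 0.24 within number 1 and -0.09 within number 2. The largest estimates were Rxrg at 0.30 ± 0.23, Rarg at 0.27 ± 0.24 and the orphan receptor Nr2f1 at -0.25 ± 0.28. Genes known to be induced by retinoic acid went both ways, 7 of 15 higher and 8 lower, at a median of -0.03 and with 0 at an unadjusted p under 0.05. Of these, Dhrs3 is given above, Pdk4, a kinase that curbs pyruvate oxidation, differed by 0.37 ± 0.38, and the homeobox gene Meis1 by 0.23 ± 0.24.

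The gene tested whose deviations over the 4 arrays were most like those of Aldh1a1 was Car4, a carbonic anhydrase, at a root mean square distance of 0.03 on the log2 scale over 4 arrays. It was followed by the asparagine synthetase gene Asns (0.03) and the transcription factor gene Nfil3 (0.04). Car4 gave 5.38 and 5.25 with ormeloxifene and 6.04 and 6.16 with vehicle. Of 18165 genes compared, 18 lay within a distance of 0.1, and with 4 arrays such likeness is a description only.

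The labelled tissue was checked against markers of its compartments. The 9 stromal markers measured lay between the 89.7th and the 99.9th percentile of signal, the 7 of smooth muscle between the 89.5th and the 99.8th, and the 12 of epithelium between the 36.8th (Foxa2) and the 98.1th (Cldn3); a percentile reflects the probe set as well as the transcript. No marker passed the adjusted threshold in the fit without the replicate number or with it as a block on normalized values; with the block on deposited values Alb (adjusted p = 0.000109), Kif20a (0.0383), Top2a (0.0479) and Ccna2 (0.0482) passed by limma, all lower. Epithelial markers were higher with ormeloxifene in 4 of 12 and lower in 8, at a median of -0.17, with a mean level of 7.25 to 7.32 on the ormeloxifene arrays and 7.29 to 7.53 on the vehicle arrays. Smooth muscle markers were higher in 7 of 7 (median 0.33; 10.23 to 10.44 against 9.94 to 10.15), and proliferation genes lower in 8 of 8 (median -0.68; 5.98 to 6.20 against 6.42 to 7.05). Of all genes, 53.4% were higher. In the main fit by limma, 0 of 7 smooth muscle markers and 4 of 8 proliferation genes had an unadjusted p under 0.05, against 2.20% of all genes. Without vehicle replicate 2 the smooth muscle and proliferation medians were 0.13 and -0.37. The smooth muscle median was 0.19 without ormeloxifene replicate 1. Stromal markers were higher in 4 of 9 (median -0.01; 10.13 to 10.18 against 10.10 to 10.18), endothelial markers in 5 of 5 (median 0.20), mesothelial markers in 3 of 6 (0.06), macrophage markers in 6 of 7 (0.12) and ovarian genes in 7 of 8 (0.09). Of the 7 plasma proteins of hepatocytes, which share the liver as source with Rbp4, 5 were higher at a median of 0.08; the 2 lower were Alb at -1.34 ± 0.21 and Fgg at -0.53 ± 0.29, both with groups that did not overlap. The part of these shifts in the values of Lrat, Aldh1a1, Stra6 and Rbp4 was not tested.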

How the data were processed

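The deposited values are log2 probe set signals, 36685 for each of the 4 arrays. Affymetrix Expression Console made them, per the submitters' processing notes; the sources used here do not give the version, the way probes were summarised or the genome build. Their range, 0.92 to 13.59, shows the log2 scale. Array medians were 5.67 and 5.93 with ormeloxifene and 5.72 and 5.84 with vehicle, so quantile normalization over all probe sets was applied. In the platform annotation 18511 probe sets had 1 symbol, 575 had several and 17599 had none. The brightest probe set was kept for the 291 genes with several, and 18394 names were matched to RefSeq by gene number. Groups were compared with limma 3.58.1 (lmFit and eBayes, 2-sided) in R 4.3.3, Benjamini-Hochberg adjusted over 18166 genes at a threshold of 0.05, with 7.55 degrees of freedom after moderation. The fit was tested on simulated data that held no difference between replicate numbers, unlike these arrays. An exact permutation test of 2 arrays against 2 cannot go below p = 0.333. The number of arrays limits the precision. In the main fit the p-values rest on spread between the labelled biological replicates, which includes any difference between the replicate numbers. The block fits take that difference out and leave 1 residual degree of freedom per gene.

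The replicate numbers come from the labels, which do not say that they pair samples. Over all genes, arrays of the same number correlated at 0.980 and 0.983, arrays of a group at 0.973 (ormeloxifene) and 0.963 (vehicle), and the pairs that share neither at 0.968 and 0.964. The members and lists were chosen with earlier results of these data known. Named were all 9 members, the 3 genes of smallest p in each other pathway list, and the 3 genes most like the member with the largest difference; other genes named with values in the report (Rarb, Dgat1 and the tissue markers) were chosen after their values were seen. A listed gene absent from the single-symbol probe sets was not analysed here. One listed symbol, Adh1, was matched through a RefSeq synonym to Adh1c. Promoters are those of RefSeq, GRCr8; protein sequences were not used here.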

Additional observations from a re-analysis of the deposited data

How the results depend on the processing

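The number of members past the adjusted threshold was 0 under all 12 alternatives run. The number at an unadjusted p under 0.05 was 2, as in the main fit, with arrays as deposited, centred on their medians, with probe sets averaged, with all probe sets tested and with a trended, robust fit; it was 4 with the replicate block, 4 with that block on deposited values, 0 among genes brighter than the median gene (which holds Stra6 and Aldh1a2 of the members), and from 0 to 3 with 1 array left out. The 0 came without ormeloxifene replicate 2, where limma gave Aldh1a1 an unadjusted p of 0.0501 and Lrat one of 0.126. Over all genes, 0 passed the adjusted threshold in the main fit, 399 had an unadjusted p under 0.05, and the number past the adjusted threshold was 1 with arrays centred, 5 with the replicate block, 84 with the block on deposited values, 1 with probe sets averaged, 9 of the 9083 genes brighter than the median gene, 4 with the trended, robust fit and from 0 to 3 with 1 array left out. The block changed no call among the members; the smallest adjusted p of Aldh1a1 was 0.0840, with the block on deposited values.

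Aldh1a1, Lrat, Stra6 and Rbp4 kept their sign under each alternative, from -0.81 to -0.70, -0.92 to -0.53, 0.23 to 0.64 and -0.78 to -0.08. With 1 array left out the sign turned in Aldh1a2 (-0.37 to 0.18), Aldh1a3 (-0.16 to 0.21), Crabp2 (-0.13 to 0.20), Cyp26a1 (-0.26 to 0.09), Cyp26b1 (-0.06 to 0.11), Rbp2 (-0.10 to 0.55), Cyp26c1 (-0.12 to 0.41), Nr2f1 (-0.55 to 0.05), Pdk4 (-0.17 to 0.92) and Rarb (-0.17 to 0.41); the lone array of a group was taken to vary like the other group. Leaving out 1 array also leaves the replicate numbers unbalanced between the groups, so a difference between the numbers enters these values. Within number 1 and number 2 the sign did not turn in Crabp2 (0.05 and 0.03) or Cyp26a1 (-0.125 and -0.048). It did in Aldh1a2, Aldh1a3 and Cyp26b1. The part of the imbalance in these turns was not tested. The other 14 pathway genes of the 19 named kept their sign under each alternative, which does not cover the differences within a number. Adh1c ran from 0.75 to 0.86, Bco1 from 0.33 to 0.84 and Pnpla2 from 0.20 to 0.62. Medians of the lists moved by more than the spread between replicates in 18 of 199 recomputations, among them ester storage (0.20 to 0.49), smooth muscle (0.13 to 0.41) and proliferation (-0.37 without vehicle replicate 2). The table gives no background, so how far dim genes such as Aldh1a1 stood above it is not known here.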
